A study of Homo sapiens with 6 samples.

Results

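The glucocorticoid receptor gene NR3C1 and 8 genes known to be induced by glucocorticoids were examined in sorted fractions of the breast line MCF10AT1. The 8 genes were FKBP5, TSC22D3, PER1, ZBTB16, SGK1, KLF9, DUSP1 and MAOA. All 9 were found by GENCODE 29 symbol, 1 row each, among the 58381 gene IDs listed. All 9 were also among the 16047 genes tested, those averaging 10 or more normalized counts (reads after scaling for depth), and each had over 10 normalized counts in every library. MCF10AT1 is a human mammary epithelial line derived from MCF10A cells carrying activated HRAS and passed through a mouse xenograft. All cells grew in the same medium, DMEM/F12 with 5% horse serum, insulin at 10 µg/ml, EGF at 20 ng/ml, cholera toxin at 100 ng/ml and hydrocortisone, a glucocorticoid, at 0.5 µg/ml. No library came from cells without hydrocortisone, so the files hold no measure of induction itself. Cells stained for the surface proteins CD24 and CD44 were sorted into a CD24low, CD44high fraction (named CSC in the column headers) and a CD24high, CD44+ fraction (named Bulk), with 3 libraries of total RNA each. Whether the replicates were separate cultures is not in the labels; if not, the p-values reflect technical spread between libraries alone. In bulk samples, fewer cells of a type and less RNA per cell cannot be told apart.

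The glucocorticoid receptor is held in the cytoplasm by HSP90 and its co-chaperones until hormone binds. It then enters the nucleus and either binds glucocorticoid response elements, which raises transcription of targets, or acts on AP-1 and NF-κB, which lowers inflammatory genes. Mammary epithelial cells are usually cultured with hydrocortisone, and in such cells the receptor is known for inducing the survival kinase SGK1 and the phosphatase DUSP1. Many of these targets also take other inputs: PER1 is a clock gene, and DUSP1 responds to serum, stress and cAMP, the second messenger that cholera toxin raises.

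Promoter sequence is shown for the member with the largest difference between the fractions, MAOA, and for DUSP1 and PER1, whose other inputs have known response elements. Each window is the 250 bases before the annotated start, 5′ to 3′ on the gene's strand, from RefSeq on GRCh38.p14. Capitals mark only 1 kind of motif in each window, a GC box in MAOA (GGGCGG on either strand, bound by Sp1 and Krüppel-like factors), a cAMP response element in DUSP1 (TGACGTCA) and an E-box in PER1 (CACGTG, bound by clock factors).
MAOA, chrX:43656049-43656298, plus strand: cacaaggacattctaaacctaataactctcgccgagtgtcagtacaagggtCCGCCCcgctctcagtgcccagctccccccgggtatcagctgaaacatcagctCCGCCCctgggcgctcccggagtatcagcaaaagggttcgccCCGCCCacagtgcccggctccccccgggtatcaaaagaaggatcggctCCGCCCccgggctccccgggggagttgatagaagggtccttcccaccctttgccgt
DUSP1, chr5:172771196-172771445, minus strand: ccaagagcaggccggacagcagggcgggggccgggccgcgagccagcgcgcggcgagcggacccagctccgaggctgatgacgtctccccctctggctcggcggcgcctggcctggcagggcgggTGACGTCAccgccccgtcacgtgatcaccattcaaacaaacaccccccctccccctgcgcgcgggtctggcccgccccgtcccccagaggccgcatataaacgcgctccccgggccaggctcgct
PER1, chr17:8152405-8152654, minus strand: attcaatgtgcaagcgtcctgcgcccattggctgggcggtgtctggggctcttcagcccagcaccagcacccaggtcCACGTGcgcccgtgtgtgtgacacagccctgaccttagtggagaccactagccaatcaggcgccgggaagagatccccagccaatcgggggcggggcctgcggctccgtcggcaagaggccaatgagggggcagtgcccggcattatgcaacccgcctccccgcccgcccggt

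The MAOA window held 4 GC boxes, the nearest starting 56 bases before the annotated start and the farthest 199 bases before it. The promoter table held 20 windows for 8 of the 9 genes (not ZBTB16), and both strands of each were searched. The full glucocorticoid response element, searched as the hexamer AGAACA, 3 bases of any kind and the hexamer's reverse complement, was in 0 of the 20 windows and in 1 of all 35116 windows of that length. The hexamer alone, which the full element contains, was also in 0 of the 20, against 12.4% of all windows. The GC box was in 13 of the 20 windows, covering 7 genes, against 42.6% of all windows. Several of the 20 windows belong to the same gene, so they are not independent. The E-box was in 3 windows, those of DUSP1, FKBP5 and PER1 (6.34% of all), and the cAMP response element in the DUSP1 window only (1.65% of all). The letters of GC box, E-box and cAMP response element do not contain one another. These matches describe the windows and were not tied to any binding data.

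Totals ran from 16691162 to 27293177 recovered reads per library, lowest in CD24high replicate 3. Genes of ribosomal RNA (rRNA) type took 1.30% to 2.27% of reads in CD24high replicates 1 and 2 and CD24low replicate 3, and 7.07% to 10.2% in CD24high replicate 3 and CD24low replicates 1 and 2. Differences are therefore also given within the 3 libraries of low and the 3 of high rRNA share, each with a lone library on one side and no test. As a check of the sort, the CD24 transcript spanned 2325 to 5687 normalized counts in CD24high against 329 to 1370 in CD24low libraries, and CD44 7878 to 8993 against 6866 to 8294. All 7 mammary epithelial markers were detected in every library, and their normalized counts summed to 93274 to 114592 (CD24high) and 65146 to 99674 (CD24low). Each of the 7 had a lower mean log2 value in CD24low cells, with a median difference of -0.59 (-0.13 among the low-rRNA libraries). Groups did not overlap for 4 of them, all lower, against 19.5% of all genes in either direction. DESeq2 called 2 of the 7 lower, against 2.51% of all genes called in either direction. A list of 7 mesenchymal markers summed to 5016 to 9093 in CD24high and 16908 to 56846 in CD24low cells, highest in CD24low replicate 2. Each of these 7 had a higher mean log2 value in CD24low cells, with a median difference of 1.70 (0.56 among the low-rRNA libraries). Groups did not overlap for 5 of them, all higher, against 19.5% of all genes in either direction. DESeq2 called 4 of these 7 higher, against 2.51% of all genes called in either direction. Of 7 fibroblast markers, LUM was at 0 in all libraries, COL1A2 had 1 read in 1 library and none elsewhere, and the summed level (52.6 to 358 and 887 to 3839) was mostly DCN. Of 5 leukocyte markers CD3E and MS4A1 were at 0, and the summed level was 48.4 to 63.1 and 53.9 to 118, mostly CD68. The 4 endothelial markers summed to 87.1 to 396 and 105 to 342, mostly PECAM1. The summed mesenchymal and fibroblast markers had higher values in the same fraction as the glucocorticoid targets described next, and the 7 epithelial markers had lower values there. The part of these markers in the differences of the targets was not tested.

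Levels of the 9 genes spanned a wide range when given per kilobase of summed exon length. In CD24high cells FKBP5 was highest, with 714 ± 52.9 normalized counts per kb (SD, n = 3, as for all means here). DUSP1 (448 ± 124) and NR3C1 (271 ± 36.3) followed, and the ranges of these 3 genes did not overlap. SGK1 (143 ± 7.10), PER1 (124 ± 36.0) and KLF9 (102 ± 20.7) came next, and each overlapped its neighbour in the order. TSC22D3 (54.7 ± 23.7), ZBTB16 (24.6 ± 14.9) and MAOA (10.2 ± 5.23) were lowest, and each also overlapped its neighbour among these 3. In CD24low cells the first 5 places were the same, but the ranges of FKBP5 (957 ± 209) and DUSP1 (935 ± 521) overlapped. From SGK1 downwards every neighbouring pair overlapped in CD24low cells, where MAOA reached 77.4 ± 64.9 per kb and ZBTB16 was last at 52.7 ± 31.1. The exon length is that of all annotated transcripts together, so genes with many alternative exons are understated.

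**Figure D1:**
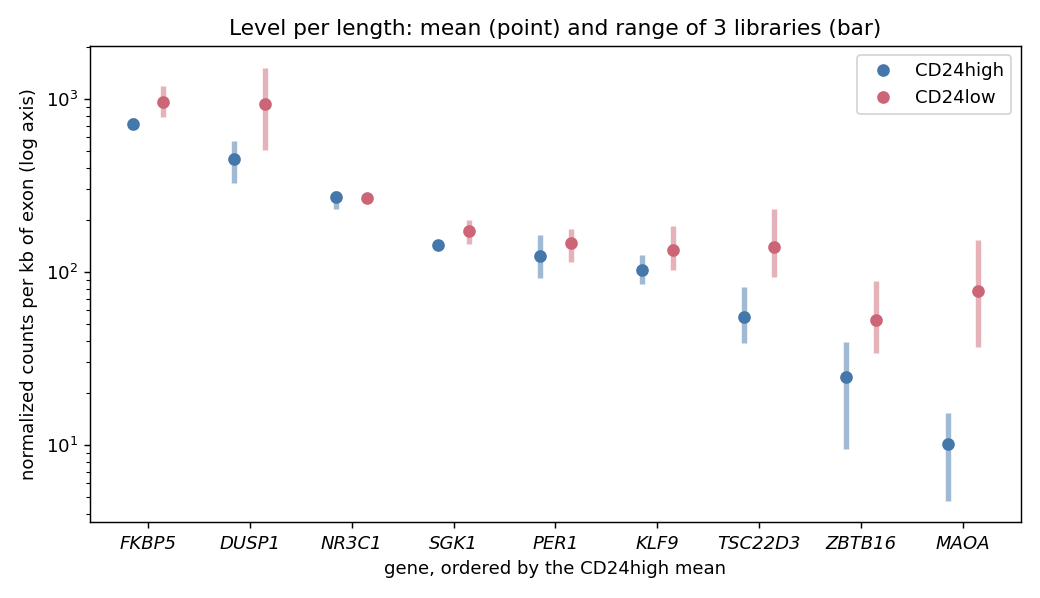
Level per length of the receptor and its 8 targets, in normalized counts per kb of summed exon on a log axis; points are means of 3 libraries, bars run from the lowest to the highest library, blue for CD24high and red for CD24low. NR3C1 lies at 271 and 265, and MAOA at 10.2 and 77.4.

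The receptor transcript itself had similar means in the fractions, 2487 ± 333 and 2434 ± 111 normalized counts. NR3C1 (ENSG00000113580.14, chromosome 5, 143277931 to 143435512, minus strand, hg38) had 2676, 2683 and 2103 normalized counts in CD24high replicates 1, 2 and 3, and 2529, 2462 and 2312 in the CD24low libraries. The CD24low values all lay within the CD24high range. The difference, taken as log2 (normalized count + 1) of CD24low minus that of CD24high here and throughout, was -0.02 (SE 0.12, 95% interval -0.30 to 0.25; limma adjusted p = 0.95). The interval leaves room for a change of either sign, and the difference was -0.21 among the low-rRNA libraries and 0.25 among the high-rRNA libraries. RPL7P21, a ribosomal protein pseudogene inside NR3C1 on the opposite strand, had 156 normalized counts on average, 6.34% of the NR3C1 level. Whether counting used strand is not given in the sources used here, so a small part of either count may belong to the other.

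FKBP5 and TSC22D3, targets that feed back on hormone action or carry its anti-inflammatory effect, were higher in each CD24low library than in any CD24high library. FKBP5 (ENSG00000096060.14, chromosome 6, 35573585 to 35728583, minus strand) encodes an HSP90 co-chaperone that lowers the receptor's affinity for hormone. It had 7419, 8217 and 7132 normalized counts in the CD24high and 9458, 12655 and 8387 in the CD24low libraries. The groups did not overlap, but the CD24low replicate 3 value exceeded the highest CD24high value by little. The log2 difference was 0.40 (SE 0.16, 95% interval 0.05 to 0.75; limma adjusted p = 0.31), and it was 0.23 without CD24low replicate 2. It was 0.10 among the low-rRNA libraries and 0.62 among the high-rRNA libraries.

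TSC22D3 (ENSG00000157514.16, chromosome X, 107713221 to 107777342, minus strand) encodes GILZ, a leucine zipper protein that restrains NF-κB and AP-1. It had 184, 390 and 207 normalized counts in the CD24high and 442, 1097 and 449 in the CD24low libraries. The lowest CD24low library stood above the highest CD24high library, CD24high replicate 2. The mean in CD24low cells was 2.54 times that in CD24high cells, and the log2 difference was 1.29 (SE 0.37, 95% interval 0.46 to 2.11). Neither limma (adjusted p = 0.20) nor DESeq2 (adjusted p = 0.21) called it over all genes. The difference was 0.74 (low rRNA) and 1.74 (high rRNA), and 0.85 without CD24low replicate 2.

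ZBTB16, KLF9 and PER1 also encode transcriptional regulators. For none of these 3 did the groups stand apart, as they did for TSC22D3 and for 19.5% of all tested genes. ZBTB16 (ENSG00000109906.13, chromosome 11, 114059593 to 114250676, plus strand), the zinc finger repressor PLZF, had 60.6, 251 and 158 normalized counts in the CD24high and 217, 565 and 225 in the CD24low libraries. CD24high replicate 2 lay above both CD24low replicates 1 and 3. Its log2 difference of 1.17 (SE 0.50, 95% interval 0.05 to 2.29; limma adjusted p = 0.36) was 0.60 without CD24high replicate 1. KLF9 (ENSG00000119138.4, chromosome 9, 70384597 to 70414624, minus strand), a Krüppel-like factor that binds GC boxes, had 494, 648 and 443 against 577, 955 and 533. Only CD24low replicate 2 exceeded all CD24high libraries, and the difference of 0.35 (SE 0.23, limma adjusted p = 0.53) was 0.09 without that library. Among low-rRNA libraries it was -0.09, and among high-rRNA libraries 0.74.

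PER1 (ENSG00000179094.15, chromosome 17, 8140472 to 8156506, minus strand), a repressor in the circadian clock, had 641, 815 and 1138 normalized counts in the CD24high and 1044, 1237 and 794 in the CD24low libraries. The groups interleaved: CD24high replicate 3 was the second highest library and CD24low replicate 3 the second lowest. The difference of 0.26 (SE 0.22, 95% interval -0.23 to 0.75; limma adjusted p = 0.64) was 0.07 with CD24high replicate 1 left out and 0.48 with CD24high replicate 3 left out. It was 0.14 among the low-rRNA and -0.0026 among the high-rRNA libraries. AC129492.3, an overlapping gene on the same strand, had 40.0 normalized counts on average, 4.23% of the PER1 level.

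The kinase and the phosphatase among the targets differed in their pattern over libraries. SGK1 (ENSG00000118515.11, chromosome 6, 134169246 to 134318112, minus strand), a survival kinase that also controls sodium channels, had 1402, 1369 and 1505 normalized counts in the CD24high and 1455, 1688 and 1988 in the CD24low libraries. CD24low replicate 1 lay inside the CD24high range, and CD24low replicate 3 was highest. The difference was 0.25 (SE 0.13, 95% interval -0.04 to 0.54; limma adjusted p = 0.43), and 0.14 without CD24low replicate 3. Besides PER1, it was the only target with a larger value among the low-rRNA libraries (0.52) than among the high-rRNA libraries (0.06). DUSP1 (ENSG00000120129.5, chromosome 5, 172768090 to 172771195, minus strand), which removes phosphate from ERK, JNK and p38, had 905, 1154 and 655 against 1579, 3059 and 1025. CD24low replicate 3 lay below CD24high replicate 2, so the groups overlapped. The log2 difference was 0.95 (SE 0.35, 95% interval 0.18 to 1.73; limma adjusted p = 0.29), and 0.53 without CD24low replicate 2. DUSP1 differed by 0.0035 among the low-rRNA and by 1.75 among the high-rRNA libraries.

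MAOA had the largest difference of the 9 genes. MAOA (ENSG00000189221.9, chromosome X, 43654907 to 43746824, plus strand) encodes the mitochondrial monoamine oxidase that breaks down serotonin and noradrenaline. It had 58.1, 84.0 and 26.3 normalized counts in CD24high replicates 1, 2 and 3, from 70, 85 and 18 reads. The CD24low libraries had 238, 842 and 204 normalized counts, so each stood well above the highest CD24high library. The log2 difference was 2.74 (SE 0.54, 95% interval 1.53 to 3.95), and 50 of the 16047 genes had a larger one. DESeq2 called it higher in CD24low cells (log2 2.93, adjusted p = 0.014), while limma (adjusted p = 0.095) and edgeR (adjusted p = 0.14) did not. Leaving out CD24low replicate 3 gave 3.12 and a limma call (adjusted p = 0.025), and leaving out CD24low replicate 2 gave 2.10 and none. The difference was 1.53 among the low-rRNA and 4.04 among the high-rRNA libraries. MAOB, the second monoamine oxidase, was below the filter, with 5.60 ± 1.64 (CD24high) and 12.8 ± 1.44 (CD24low) normalized counts; each CD24low library was above each CD24high library.

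**Figure D2:**
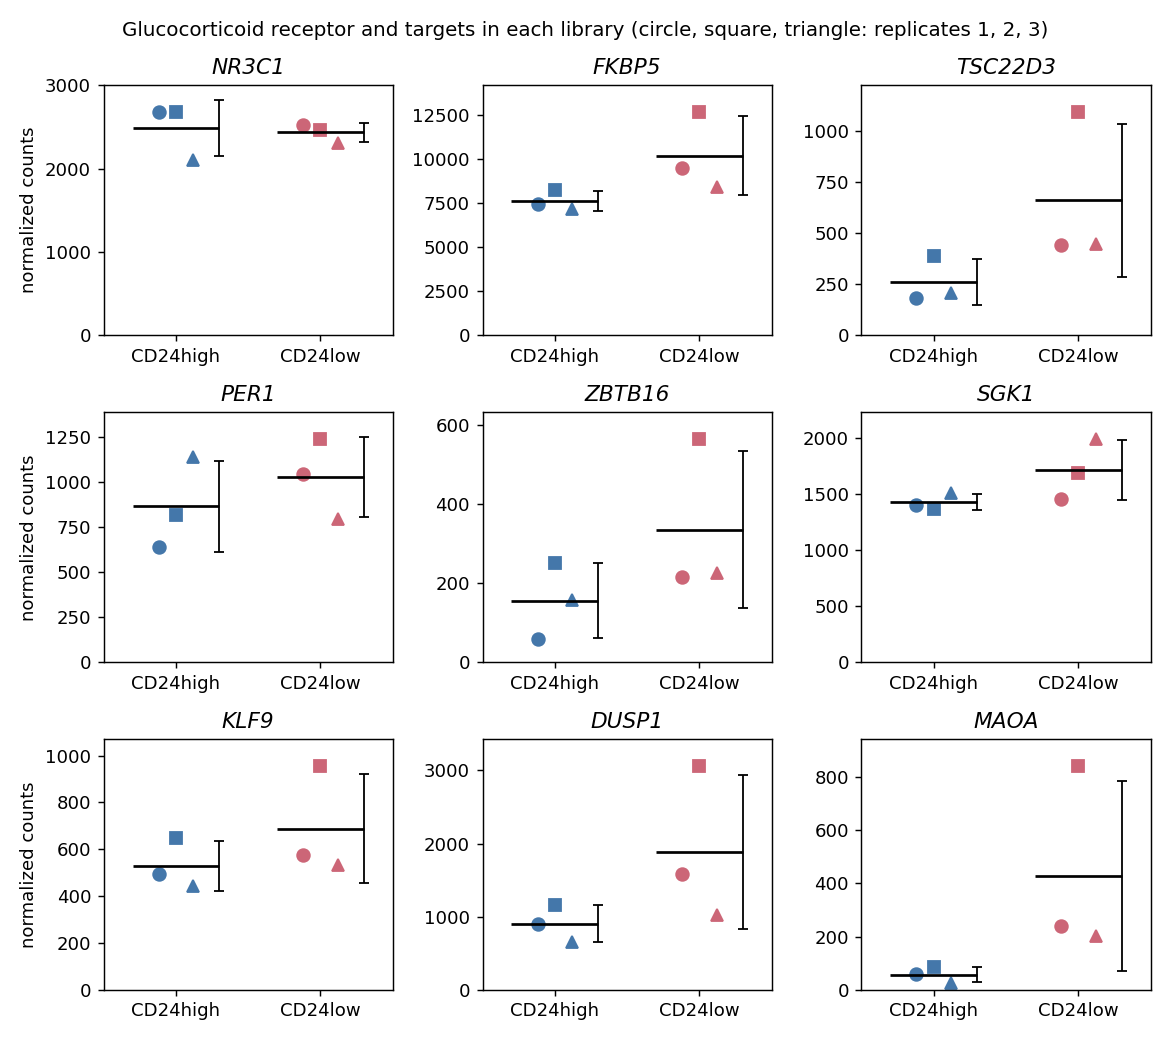
Normalized counts of each gene (y axis, from 0) in the 3 CD24high and 3 CD24low libraries; circles, squares and triangles are replicates 1, 2 and 3, lines are means and bars ± 1 SD. The groups do not overlap for FKBP5, TSC22D3 and MAOA, and CD24low replicate 2 is highest for 7 of the genes, all but NR3C1 and SGK1.

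Counted together, few of the 9 genes passed a test over all genes. Limma called 0 of the 9 at an adjusted p below 0.05, where it called 0.0% of the 16047 genes tested; at an unadjusted p below 0.05 there were 5 of the 9 (MAOA, TSC22D3, DUSP1, FKBP5 and ZBTB16) against 13.5% of all genes, all 5 higher in CD24low cells against 6.34% in that direction. Without CD24low replicate 3, limma called 366 genes, MAOA among them. DESeq2 called 1 of the 9, MAOA, against 2.51% of all genes (1.36% for those higher in CD24low cells), and edgeR's quasi-likelihood test 0 of the 9 against 0.0%. The groups did not overlap for 3 of the 9, all higher in CD24low cells, against 19.5% of all genes in either direction and 10.2% in that direction. The difference was above 0 for 8 of the 9 against 49.0% of all genes, and the median was 0.40 against -0.01. The 9 genes were chosen with earlier results of these libraries known, so these counts are descriptions and carry no test of the group as a whole.

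**Figure D3:**
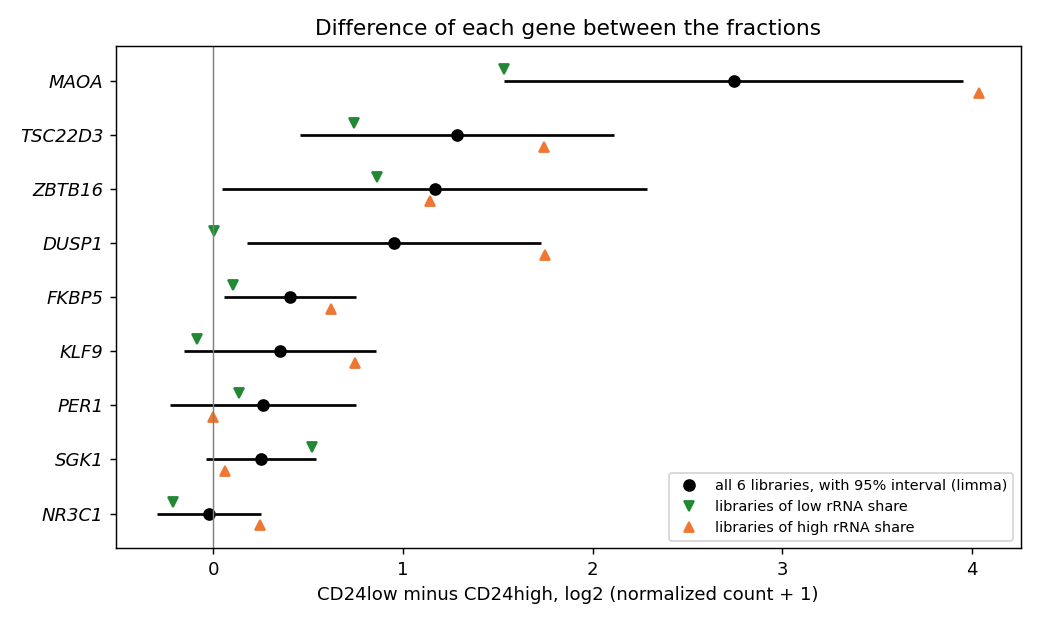
Difference of each gene, CD24low minus CD24high, on the x axis as log2 (normalized count + 1); black points with bars are the 6-library estimate and its 95% interval from limma, green and orange triangles the values among the low-rRNA and the high-rRNA libraries. Intervals of MAOA, TSC22D3, ZBTB16, DUSP1 and FKBP5 lie above 0 without adjustment, and DUSP1 is at 0.0035 and 1.75 in the low- and high-rRNA libraries.

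Of the 8 targets, 6 shared the same highest library within each fraction. FKBP5, TSC22D3, DUSP1, MAOA, KLF9 and ZBTB16 were each highest in replicate 2 within CD24high and within CD24low cells, 6 of the 9 genes against 12.1% of all genes tested. The trait was not particular to these targets. Among the lists described below, 7 of 11 cAMP-CREB genes, 9 of 16 immediate early genes and 13 of 34 other induced genes had it. So did 5 of 11 kinases and phosphatases that share substrates with DUSP1, but only 12% of receptor machinery and 7.69% of repressed genes. Against the mean of its own group, CD24low replicate 2 was higher by 1.29 for MAOA, 0.90 for ZBTB16, 0.86 for TSC22D3, 0.84 for DUSP1, 0.52 for KLF9 and 0.34 for FKBP5 on the log2 scale. In CD24high replicate 2 the values were 0.72, 0.90, 0.66, 0.39, 0.31 and 0.12 in the same order of genes. NR3C1 did not share the pattern, with 0.02 and 0.12. Over the 6 libraries, Pearson correlations of log2 values were 0.98 for FKBP5 with DUSP1, 0.95 for FKBP5 with TSC22D3, and 0.94 for TSC22D3 with MAOA. Those of ZBTB16 were 0.92 with TSC22D3, 0.75 with DUSP1 and 0.74 with MAOA. In CD24high replicates 1 and 3, ZBTB16 stood at -1.13 and 0.23 from its group mean, where MAOA stood at 0.20 and -0.92. SGK1 correlated with FKBP5 at 0.32 and NR3C1 with FKBP5 at 0.18. These points share libraries and include the difference between fractions, so the correlations describe these 6 libraries only. The summed mesenchymal markers were 8681 in CD24high replicate 2 and 56846 in CD24low replicate 2, highest of their group in the second case only. The fibroblast markers, mostly DCN, summed to 170, 358 and 52.6 normalized counts in the CD24high libraries, in order of replicate, against 1048, 3839 and 887 in the CD24low ones. The endothelial markers, mostly PECAM1, summed to 87.1, 396 and 158 against 105, 342 and 261. Both of these sums were highest in replicate 2 of each fraction, as the 6 targets were. The part of these markers in the pattern was not tested.

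**Figure D4:**
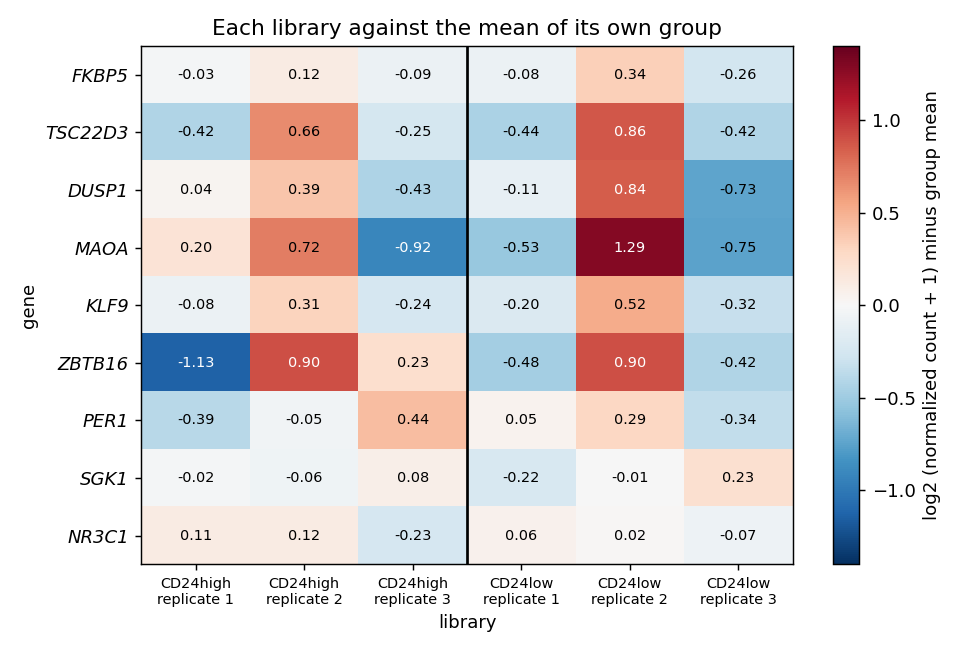
Log2 (normalized count + 1) of each gene (rows) in each library (columns) minus the mean of that library's group; red is above and blue below the group mean. The column of CD24low replicate 2 is above its mean for 8 of the 9 genes, by up to 1.29 for MAOA, with SGK1 at -0.01.

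The proteins that fold the receptor and carry its signal to chromatin gave no call. Of 25 tested chaperones, coactivators and corepressors, limma and DESeq2 called 0, where they called 0.0% and 2.51% of all genes, so the count is near the background. The median difference was 0.02, and ran from -0.01 to 0.08 with 1 library left out. HSP90AA1, the inducible HSP90, had 37383 ± 1488 and 38230 ± 6370 normalized counts. FKBP4, the co-chaperone that FKBP5 opposes, had 4606 ± 190 and 4514 ± 844. NCOA3, a steroid receptor coactivator, was the 1 gene of the 25 with groups that did not overlap, against 19.5% of all genes (1279 ± 61.7 and 1603 ± 324; log2 difference 0.31, limma adjusted p = 0.38).

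Enzymes and receptors that decide how much steroid reaches a receptor, and which, differed widely in level. Of 12 listed, 7 were tested, the highest being STS at 399 ± 59.6 (CD24high) and 375 ± 57.0 (CD24low) normalized counts. Groups did not overlap for 3 of the 7, 1 higher and 2 lower in CD24low cells (42.9% against 19.5% of all genes). HSD11B2, which inactivates cortisol, had 64.3 ± 6.58 (CD24high) and 45.2 ± 7.79 (CD24low) normalized counts, with groups that did not overlap (log2 difference -0.51; DESeq2 adjusted p = 0.53). HSD11B1, which regenerates cortisol, was below the filter at 1.26 ± 1.53 and 3.87 ± 3.35, as was NR3C2, the mineralocorticoid receptor, at 5.20 ± 1.08 and 5.91 ± 1.81. PGR, the progesterone receptor, had 0 reads throughout; a count of 0 leaves room for 2.49 to 4.38 normalized counts per library, considering counting error only.

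Among other genes that glucocorticoids are known to induce, some were higher in CD24low cells and a smaller number lower. Of 34 tested, DESeq2 called 6 higher and 0 lower (17.6% against 2.51% of all genes), limma called 0, and the median difference was 0.19. That median was 0.06 without CD24low replicate 2, 0.36 without CD24high replicate 2 and 0.07 among the low-rRNA libraries. Groups did not overlap for 13 (38.2% against 19.5% of all genes), of which 11 were higher, a direction that 10.2% of all genes took, and 2 lower. The called genes included the metallothioneins MT1E (1962 ± 195 and 4864 ± 1147; log2 difference 1.28, DESeq2 adjusted p = 2.6e-09), MT2A (1.20) and MT1X (1.35), metal-binding proteins that zinc also induces and whose reads may be shared with near-identical copies. The others were PDK4, which restrains glucose oxidation (117 ± 10.8 and 234 ± 106; DESeq2 adjusted p = 0.036), the phosphoinositide 3-kinase subunit PIK3R1 (1297 ± 117 and 2016 ± 545) and RGS2, a brake on G protein signalling (42.9 ± 6.63 and 91.1 ± 27.6). FOXO1, a forkhead factor, had 442 ± 122 and 1051 ± 547 and was not called (log2 difference 1.16, DESeq2 adjusted p = 0.14). Against the direction of the called genes, ANXA1, the anti-inflammatory annexin, had 15161 ± 1686 and 10948 ± 1804 with groups apart (log2 difference -0.48, DESeq2 adjusted p = 0.059), as did TFCP2L1 (-0.34).

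Genes that glucocorticoids are known to repress did not share a direction. Of 13 tested, 7 differences were above and 6 below 0, with a median of 0.12 that was -0.49 among the low-rRNA libraries. With 1 library left out the median was lowest at -0.07, when CD24high replicate 2 was dropped, and highest at 0.31, when CD24high replicate 1 was. It also depended on the filter, at -0.25 with no filter and 0.44 for genes averaging at least 50 normalized counts. Groups did not overlap for 3 of the 13, all lower in CD24low cells (23.1% against 19.5% of all genes in either direction). DESeq2 called 1 of the 13, against 2.51% of all genes. It was PTGS2, the prostaglandin synthase COX-2, lower in CD24low cells (126 ± 25.8 and 56.9 ± 11.1; log2 difference -1.12, DESeq2 adjusted p = 0.0067, limma adjusted p = 0.12). IL1A had 102, 67.2 and 40.9 against 32.6, 26.7 and 30.4 normalized counts (DESeq2 adjusted p = 0.055). The cytokine CXCL8 pointed the other way, at 104 ± 14.4 and 178 ± 129, with groups that overlapped.

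Lists for the other inputs of PER1 and DUSP1 gave unlike counts. Of 16 tested clock genes besides PER1, limma and DESeq2 called 0, against 0.0% and 2.51% of all genes, so the count is near the background. Groups did not overlap for 0 of them, against 19.5% of all genes, and the median was -0.11 (-0.14 to -0.03 with 1 library left out). Single differences of these clock genes ran from -0.82 to 0.98. PER2, a second clock repressor, had 198 ± 21.1 and 195 ± 25.1 normalized counts. Of 16 tested immediate early genes besides DUSP1, 0 were called, again near the background, and the median was 0.04. That median was -0.12 without CD24low replicate 2 and 0.21 without CD24low replicate 3. FOS had 2504 ± 567 and 2532 ± 543, while ATF3 was lower in each CD24low library (329 ± 28.4 and 235 ± 35.5; DESeq2 adjusted p = 0.14). Among 11 tested genes of the cAMP-CREB response besides PER1, DESeq2 called 3 higher. The median was 0.36, and it was 0.13 without CD24low replicate 2 and 0.08 among the low-rRNA libraries. The called genes were PDE4B, a cAMP phosphodiesterase (0.83, 4.94 and 1.46 against 30.8, 82.1 and 19.6; DESeq2 adjusted p = 9.8e-05), the coactivator PPARGC1A (0.83, 3.95 and 2.92 against 7.05, 59.2 and 14.7) and RGS2, which the induced list also holds. PDE4B and PPARGC1A had few reads in CD24high cells and reached the mean of 10 through the CD24low libraries alone, so the list's count and median are not set against those of all genes.

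Partners of single members gave no limma or DESeq2 call, where DESeq2 called 2.51% of all genes. The medians of the paralogs, of the genes around SGK1 and of those around DUSP1 were near 0, and each took either sign as single libraries were left out. Of 16 tested paralogs the median was 0.02, and TSC22D4 had the largest difference (376 ± 68.7 and 538 ± 136; log2 0.50, DESeq2 adjusted p = 0.22). Of 9 tested genes around SGK1 the median was -0.08, and single differences ran from -0.38 to 0.68. Groups did not overlap for 2 of the 9, 1 higher and 1 lower in CD24low cells (22.2% against 19.5% of all genes). NEDD4L, the ubiquitin ligase that SGK1 inhibits, was lower in each CD24low library (2615 ± 83.0 and 2035 ± 370; DESeq2 adjusted p = 0.22). The 11 tested kinases and phosphatases that share substrates with DUSP1 had a median of -0.04, and the 2 tested genes of amine metabolism besides MAOA a median of 0.25.

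**Figure D5:**
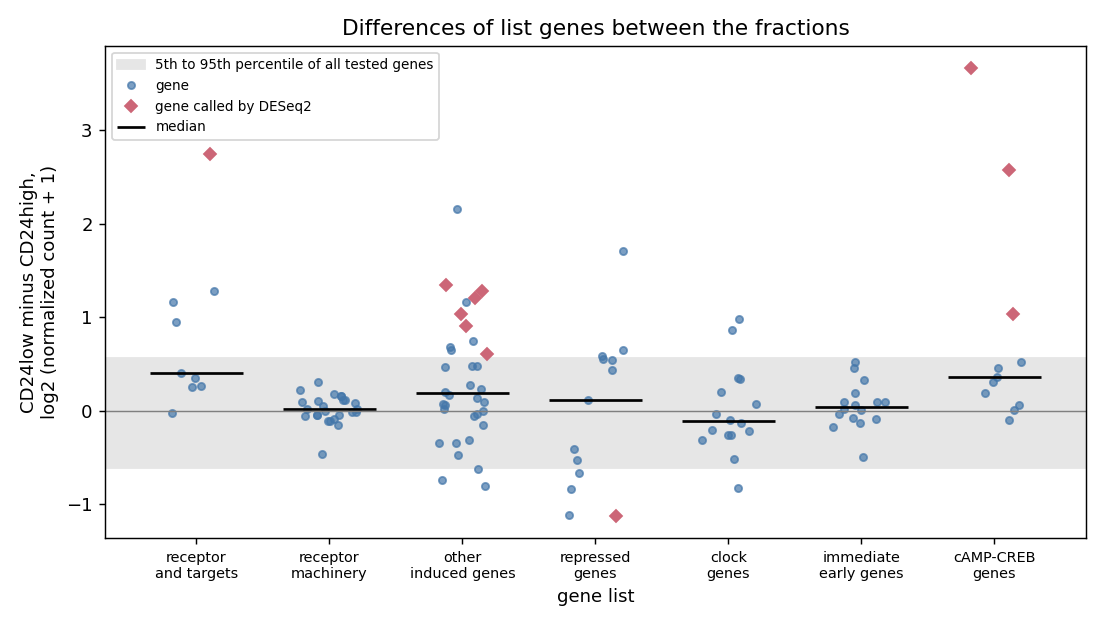
Difference of each tested gene, CD24low minus CD24high, as log2 (normalized count + 1) on the y axis, by gene list; lines are medians, diamonds are genes called by DESeq2, and the grey band spans the 5th to the 95th percentile of all 16047 genes. MAOA is the 1 diamond among the receptor and its targets, 6 are among other induced genes, and receptor machinery has a median of 0.02.

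Patterns most like those of the receptor and of MAOA were sought among the 11469 genes averaging 100 or more normalized counts, by Pearson correlation of log2 (normalized count + 1) over the 6 libraries. For NR3C1 they included TOR1B (r = 0.984), MSANTD4 (0.978) and the lysosomal protease CTSL (0.975). The differences of these 3 genes between the fractions were between -0.04 and 0.01, and CD24high replicate 3 was the lowest library for each, as for NR3C1. For MAOA they were the phosphatase DUSP23 (r = 0.998), the aldose reductase AKR1B1 (0.997), NOL3 (0.997) and the mitochondrial flavoprotein AIFM1 (0.996). DUSP23 had 280, 327 and 229 normalized counts in the CD24high and 442, 692 and 446 in the CD24low libraries, a log2 difference of 0.90. AIFM1 differed by 0.24, so likeness of pattern came with unlike size. With 6 points and 11469 genes, these correlations are a description only.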

How the data were processed

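RNA of 3 CD24low and 3 CD24high libraries was rRNA-depleted and made into strand-specific libraries with random hexamers, per the labels' protocols. The deposited values are a signal per gene: counts that the authors divided by a DESeq2 size factor per library, per the submitters' processing notes, which name STAR 2.5.2, R 3.5.0 and hg38. For the read counter, its strand setting and the annotation release, the tool or value is not given in the sources used here. Whole reads were recovered by dividing by each library's step (100% of values whole within 0.1 reads). Of the listed IDs, 58261 matched GENCODE 29 without version. None of the 9 genes had reads identical to another tested gene's in all libraries.

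Log2 (normalized count + 1) was fitted with limma 3.58.1, its trend option on, as the main, two-sided test for genes with a mean of at least 10, with Benjamini-Hochberg adjustment over 16047 genes and a threshold of 0.05. DESeq2 1.42.0 and edgeR 4.0.16 (quasi-likelihood, TMM) ran on recovered reads, in which 1 read was worth 0.83 to 1.46 normalized counts. A count of 0 was given a limit of 3 reads, which covers counting error only, as PCR duplicates carry no molecular identifier. The pseudocount understates changes of low genes. Counts were also simulated for this comparison, with 200 of 16047 genes changed. At a fold of 2 limma recovered 61.5% and DESeq2 67%, with 9 and 35 false calls. At a fold of 4 limma recovered 97% and DESeq2 95.5%, with 24 and 44 false calls. In the 6 libraries themselves limma called 0 of the 16047 genes. MAOA, at a fold of 6.70 from its log2 difference, had a limma adjusted p = 0.095. Whether the recovery rates of the simulation hold for the 6 libraries was not tested.

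The members and lists were chosen with earlier results of these data known. Members were left out of the 11 other lists. Named genes were all members; list genes called by DESeq2 or among the 3 smallest limma p per list; partners and overlapping genes of members; and the 4 genes most like NR3C1 and MAOA. Of the genes this rule names, 2 are not reported here. HSD11B1, PGR, STS, CXCL8, FOS, FOXO1, ANXA1, TFCP2L1 and the genes named from the marker lists fall outside that rule. They were named after their values were seen. Computation used R 4.3.3, Python 3.11.15, pandas 2.3.3 and matplotlib 3.10.9. Alternatives were other tests, scalings, pseudocounts and filters, a replicate block, rRNA share and leaving out libraries.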

Additional observations from a re-analysis of the deposited data

How the results depend on the processing

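Limma called 0 genes in all, 0 of the 9 members and 0 list genes in the main test, and again with pseudocounts of 0.5 and 5, a mean of at least 50, no trend, scaling to all or to protein-coding reads, edgeR or rRNA share as a covariate. Counts of genes, members and list genes called were 402, 1 and 10 with DESeq2 and 164, 1 and 4 with no filter. With 1 library left out they ran from 0 to 366, 0 to 1 and 0 to 6; all were 0 except without CD24low replicate 3. Without both libraries numbered 3, an alternative chosen after seeing the data, they were 103, 0 and 3. The same-numbered libraries' deviations correlated at 0.27, 0.30 and 0.05 for replicates 1, 2 and 3, so the numbers were not taken to pair samples; replicates 1 and 2 of CD24high correlated best with their own number and replicate 3 did too, while CD24low replicate 3 correlated best with CD24high replicate 1. With the replicate block the counts were 716 (4.46% of genes), 4 and 19 in limma and 705 (4.39%), 4 and 19 in edgeR. The 4 members were MAOA (2.74 and 2.77), TSC22D3 (1.29 and 1.30), ZBTB16 (1.17 and 1.16) and DUSP1 (0.95 and 0.96) with the replicate block in limma and edgeR.

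MAOA passed with DESeq2 (2.93), with no filter (2.74) and without CD24low replicate 3 (3.12). The sign of NR3C1 turned with rRNA share as a covariate (0.0170) and without both libraries numbered 2 (0.0275, chosen after seeing the data). With 1 library left out NR3C1 ran from -0.14 to 0.0363 (above 0 without CD24high replicate 1, CD24high replicate 2 or CD24low replicate 3), FKBP5 from 0.23 to 0.53, TSC22D3 from 0.85 to 1.62, PER1 from 0.07 to 0.48, ZBTB16 from 0.60 to 1.62, SGK1 from 0.14 to 0.36, KLF9 from 0.09 to 0.51, DUSP1 from 0.53 to 1.32 and MAOA from 2.10 to 3.12. Within libraries of low rRNA share values moved past the replicate spread for NR3C1 (-0.21), FKBP5 (0.10), SGK1 (0.52), KLF9 (-0.0861), DUSP1 (0.0035) and MAOA (1.53), and within those of high share for NR3C1 (0.25), SGK1 (0.0584), KLF9 (0.74), DUSP1 (1.75) and MAOA (4.04). The cause was not tested. Counted over each list in each alternative run, the median moved past the spread in 11 cases and stayed within it in 231. Depth limits genes such as MAOA in CD24high replicate 3, with 18 reads.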
